A study of Caenorhabditis elegans with 2 samples.

Results

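The genes described here encode the initiation and elongation factors of translation in the nematode Caenorhabditis elegans, and the data show where the nuclear hormone receptor NHR-71 was found near their promoters. They were chosen by name, as every protein-coding gene whose symbol starts with eif-, iff-, ife-, ifg- or eef- in the Ensembl annotation of the WBcel235 assembly (ce11). The rule gave 39 of 19973 protein-coding genes on the nuclear chromosomes. It used no binding value. The name is broader than the function in at least 1 case, since eif-4A3 encodes a protein of the exon junction complex, which marks spliced messenger RNA. It also leaves out factors with other names, which are described further on.

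The study is a chromatin immunoprecipitation and sequencing experiment on whole L1 larvae, the first larval stage, with 1 group of 2 biological replicates. The worms were hermaphrodites of strain OP480, genotype unc-119(tm4063) III with the transgene wgIs480, a stable line in which NHR-71 carries GFP and FLAG at its C-terminus, and an antibody against GFP was used. They were synchronized by bleaching and starvation at L1 and collected 6 h later, and both replicates share all of this. The labels do not state whether food was given in those hours, or which promoter drives the tagged receptor. Because whole animals were used, a stronger peak in a few cells and a weaker one in many cannot be told apart.

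Translation starts when a small ribosomal subunit, loaded with the initiator tRNA by eIF2, is brought to the capped end of a messenger RNA by eIF4E and eIF4G with the help of the multi-subunit eIF3. It then scans to the start codon under the control of eIF1 and eIF1A. eIF2B recharges eIF2 with GTP, eEF1A delivers aminoacyl-tRNAs to the elongating ribosome, the eEF1B complex recharges eEF1A, and eEF2 moves the ribosome along. eIF5A, which carries the modified residue hypusine, helps stalled ribosomes. In starved L1 larvae growth is halted and resumes on feeding, and protein synthesis is among the most costly activities of a growing cell.

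A promoter peak was found at 28 of the 39 genes (71.8%), against 20.8% of all protein-coding genes. A promoter peak means that the summit of a peak lay between 1000 bp upstream and 200 bp downstream of the annotated gene start, and the peaks are the 8540 that the authors kept after filtering by irreproducible discovery rate (IDR), a measure of how well replicates rank peaks alike. These are the 8540 strongest summits of the list from pooled replicates. Among as many of the strongest positions in each replicate list, 26 of the genes had one in replicate 1 (66.7%, against 21.2% of all genes) and 30 in replicate 2 (76.9%, against 21.1%). In the 4270 IDR peaks of higher signal the count was 23 of 39, or 59.0%, against 13.4% of all genes. Above a signal of 1000 it was 8 of 39, or 20.5%, against 2.17%. These shares are descriptions, because 1 group, with no control list analysed here, allows no test over samples. The members were chosen with results of these data known.

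The signal differed widely among these genes. Signal is the authors' own value for each peak, on a scale that the sources used here do not define, and it is used to rank peaks within a list. The strongest promoter peak of each of the 28 genes had a median signal of 389 (quartiles 240 and 1356), against 275 (quartiles 151 and 548) over all 4152 genes with a promoter peak. The lowest was 99.8 at eif-2D and the highest 3343 at iff-2. Of the 28 genes, 11 lay above the upper quartile of all genes with a promoter peak and 4 below the lower one. The ratio of the medians, translation factor genes to all genes with a peak, was 1.41 for the IDR peaks, with 1.55 and 1.20 in replicates 1 and 2.

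**Figure D1:**
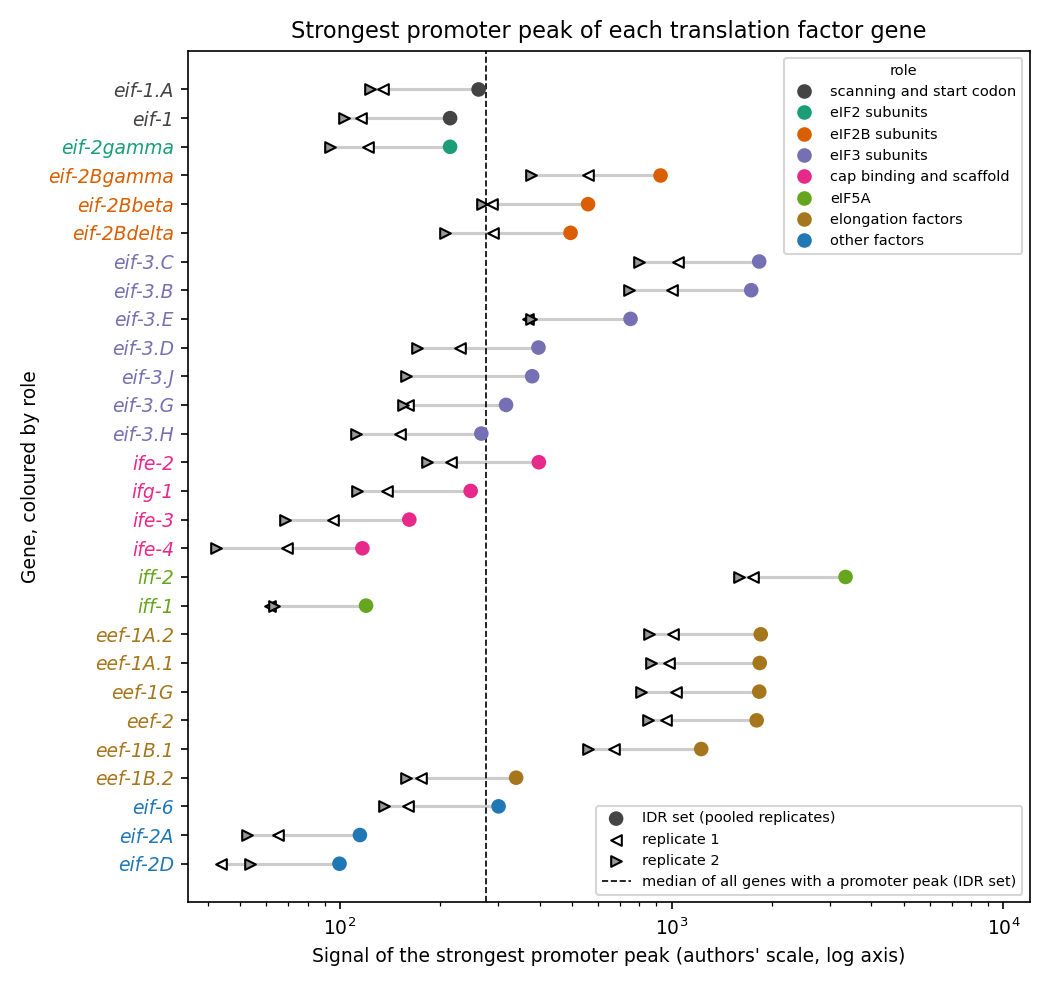
Signal of the strongest promoter peak of the 28 genes with one (horizontal log axis, the authors' scale), with the IDR value as a filled circle coloured by role and the replicate values at the same summit as open and grey triangles. All elongation factor genes but eef-1B.2 (340) sit at 1228 or above, iff-2 stands highest at 3343, and the dashed line marks the median of 275 over all genes with a promoter peak.

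All 6 elongation factor genes had a promoter peak, with a median signal of 1820. The signal at eef-1A.2, which encodes eEF1A, was 1856 among the IDR peaks, with 1009 in replicate 1 and 854 in replicate 2. At eef-1A.1, the other eEF1A gene, it was 1843, with 981 and 864 in replicates 1 and 2. The eef-1G gene for the gamma subunit of the eEF1B complex had 1837, with 1033 and 808, and eef-2, the gene for the translocase eEF2, had 1804, with 964 and 846. These 4 IDR values lay between 1804 and 1856, and their order differed between replicates: eef-1G was highest of the 4 in replicate 1 and lowest in replicate 2. The eef-1B.1 gene followed at 1228, with 671 and 559, and eef-1B.2 at 340, with 176 and 158. Both replicates therefore placed the eEF1B pair in the same order, with eef-1B.1 the stronger.

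The eEF1A genes encode the same protein from different chromosomes, and both promoters carried a peak of nearly equal signal. Translation of the annotated coding sequences gave 463 residues for each, with 100% identity. The eef-1A.1 summit lay 385 bp upstream of its gene start on chromosome III, and the eef-1A.2 summit 372 bp upstream on chromosome X. The first of these is also in the window of rfc-4, a replication factor C subunit gene on the opposite strand, whose start is nearer at 156 bp, so that peak cannot be given to either gene. The 101 bp centred on each summit are shown here because they differ while the proteins do not. They run 5′ to 3′ on the strand of the gene, on ce11, at chrIII:6972047-6972147 (minus strand) and chrX:7823232-7823332 (plus strand). Capitals mark any of 6 words that were searched on both strands.

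eef-1A.1: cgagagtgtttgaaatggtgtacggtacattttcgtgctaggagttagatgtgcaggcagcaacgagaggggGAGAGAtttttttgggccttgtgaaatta
eef-1A.2: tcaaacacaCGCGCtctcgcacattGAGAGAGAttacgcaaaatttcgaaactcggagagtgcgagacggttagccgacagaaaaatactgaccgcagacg

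Both windows hold GAGAGA, and the eef-1A.2 window also holds CGCGC, the reverse complement of GCGCG. GC content was 45.5% at eef-1A.1 and 49.5% at eef-1A.2. The summits were 8 bp upstream at eef-1B.1, 20 bp at eef-2 and 36 bp at eef-1G, and each of these is shared with a gene on the opposite strand (aco-2, clsp-1 and ctf-4, in that order). The member's own start was the nearer in all 3 cases, at a gap of 323, 245 and 144 bp from the summit to the start of the other gene. aco-2 encodes mitochondrial aconitase of the citric acid cycle. The eef-1B.2 summit, 150 bp upstream, lay in no other window. Annotated non-coding genes lay within 100 bp of the summits of eef-1A.1 (the miRNA gene cel-mir-5549) and eef-1B.1 (F54H12.9).

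The eIF5A genes both had a promoter peak, at very different signals. The IDR signal of iff-2 was 3343, rank 23 of 8540, with 1753 and 1597 in replicates 1 and 2. iff-1, which is known for its role in germ cell proliferation, had 120, rank 6515, with 61.5 and 63.3. The proteins are 83.9% identical over 161 aligned residues, from 195 residues for iff-1 and 161 for iff-2. The germ line of an L1 larva consists of few cells, and how many cells carried either peak was not tested. The iff-1 summit was 140 bp upstream of its start and 139 bp from that of cdk-1, the gene for a cell cycle kinase on the opposite strand, so it cannot be given to either. The iff-2 summit was 72 bp upstream of the annotated start and 484 bp upstream of the first coding base, and it is also in the window of F54C9.14, 863 bp from that gene's start. Their windows follow, at chrIII:9747283-9747383 and chrII:8561389-8561489, both on the minus strand.

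iff-1: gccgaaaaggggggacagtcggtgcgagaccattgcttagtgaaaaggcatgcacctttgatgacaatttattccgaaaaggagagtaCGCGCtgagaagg
iff-2: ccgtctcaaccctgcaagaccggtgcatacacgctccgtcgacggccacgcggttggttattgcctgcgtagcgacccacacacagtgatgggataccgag

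The weaker iff-1 window holds CGCGC, while the iff-2 window holds none of the 6 words. The iff-2 window was the most GC-rich of the group at 61.4%.

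The subunits of eIF3, the large scaffold of initiation, were divided. Of the 11 genes named eif-3, 7 had a promoter peak, with a median signal of 397. The strongest were eif-3.C, at 1836 with 1046 and 796 in replicates 1 and 2, and eif-3.B, at 1737 with 1002 and 743. In replicate 1 the value at eif-3.C was above those of all 6 elongation factor genes. eif-3.E followed at 752, with 369 and 378. eif-3.D had 397, with 230 and 171, eif-3.G had 317, with 161 and 155, and eif-3.H had 267, with 152 and 112. Of these only eif-3.H lay below the median of 275 over all genes with a peak. The eif-3.D and eif-3.H summits, 248 and 261 bp upstream, are nearer to R08D7.4 and C41D11.3, at 66 and 109 bp, and the eif-3.E summit is also in the window of B0511.17. eif-3.J had 380, at a summit 945 bp upstream, in a non-coding exon part of the neighbouring gene slc-25A46. Replicate 2 listed it at 158, and no position of replicate 1 covered it.

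No promoter peak was found at eif-3.F, eif-3.I, eif-3.K or eif-3.L. The nearest IDR summits were 2563, 2040, 1486 and 3010 bp from their starts. At eif-3.I the nearest one lay inside the gene, at a signal of 94.7. The eIF3 subunits egl-45 and cif-1, which the name rule leaves out and which were added later, also lacked a promoter peak. Within the complex, then, the values ran from 1836 at eif-3.C to no listed summit in the promoter window of any list at eif-3.F and eif-3.L.

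The window of eif-3.B is shown as a strong eIF3 promoter peak that lies in no other gene's window, at chrII:14795093-14795193 on the plus strand. Its summit lay 261 bp upstream, and the window holds TTATC, the reverse complement of the GATA factor word GATAA, as well as CGCGC.

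eif-3.B: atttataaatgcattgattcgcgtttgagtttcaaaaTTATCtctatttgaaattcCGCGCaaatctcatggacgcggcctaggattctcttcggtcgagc

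Of the 3 genes for eIF2, which carries the initiator tRNA, 1 had a promoter peak. This was eif-2gamma, at 215 with 122 and 93.4 in replicates 1 and 2, at 114 bp upstream. At eif-2alpha, whose product is the target of the stress kinases GCN-2 and PEK-1, the pooled list held a summit of 42.9 at 22 bp downstream of the start, below the lowest IDR signal of 84.1. At eif-2beta the pooled value was 26.4, and an IDR summit of 160 lay inside the gene, 771 bp downstream of the start.

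Of the 5 eIF2B genes, 3 had a promoter peak and all 3 were above the median of all genes with one. eif-2Bgamma had 926, with 560 and 378 in replicates 1 and 2. This summit lay 908 bp upstream, in an intron of C15F1.5, within 100 bp of the annotated non-coding genes sup-39, mir-1831 and C15F1.14, and a weaker IDR summit of 92.7 lay 116 bp upstream. eif-2Bbeta had 560, with 288 and 268, at 151 bp upstream and nearer to Y47H9C.8 at 53 bp. eif-2Bdelta had 496, with 290 and 207, at 38 bp upstream. It also had an IDR peak of 664 inside the gene. eif-2Balpha and eif-2Bepsilon had none in the IDR set.

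Genes for cap recognition and scanning had peaks of at most 398. Among the 5 eIF4E genes, ife-2, which is known as a somatic form, had the strongest at 398, with 216 and 183 in replicates 1 and 2 and a summit 200 bp upstream. ife-3, which has a role in the germ line, had 162, with 95.2 and 68.6, and ife-4, known from neurons and muscle, had 117, with 69.2 and 42.3. The ife-4 value in replicate 2 ranked 8933, outside the 8540 strongest positions. ife-1 and ife-5, also known from the germ line, had no promoter peak. Their proteins are 80.5% identical, the highest value among the eIF4E pairs, and the nearest IDR summits were 1373 bp from ife-1 and 16509 bp from ife-5. The share of germ cells in these larvae was not measured, and its part in these values was not tested.

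The eIF4G gene ifg-1 had a signal of 248, with 139 and 113, at 605 bp upstream. That summit is 1 bp from the start of M110.3 and cannot be given to ifg-1. The genes of the scanning factors, eif-1 and eif-1.A, had 215 (116 and 103 in replicates 1 and 2) and 262 (135 and 123). The eif-1 summit was 10 bp from the start of vps-24, which encodes a subunit of a membrane remodelling complex, against 408 bp from that of eif-1, and it is also in the window of pigb-1, 911 bp from its start. The eif-1.A summit, 352 bp upstream, is also in the window of H06H21.37, 608 bp from its start. The other factors were eif-6, which keeps ribosomal subunits apart, at 301 (161 and 136), eif-2A at 115 (65.1 and 52.4) and eif-2D at 99.8 (43.8 and 53.6). The eif-6 summit, 330 bp upstream, is also in the window of pbs-2, a proteasome subunit gene, at 336 bp. The eif-2D summit, 149 bp upstream, is also in that of ndub-5, at 219 bp. The exon junction gene eif-4A3 had no promoter position in any list.

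The windows of ife-2, at chrX:382859-382959 on the minus strand, and of eif-1.A, at chrIV:4810532-4810632 on the plus strand, are shown because each holds the word GCGCG or its reverse complement more than once. Their signals, 398 and 262, are close to and below the group's median of 389.

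ife-2: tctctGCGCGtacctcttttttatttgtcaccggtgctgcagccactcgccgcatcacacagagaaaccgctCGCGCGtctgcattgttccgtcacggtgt
eif-1.A: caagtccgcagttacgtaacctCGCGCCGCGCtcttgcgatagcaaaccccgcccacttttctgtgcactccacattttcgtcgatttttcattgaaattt

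Across the group the strongest summits lay upstream of the annotated start in all 28 genes. The median position was 246 bp upstream (quartiles 372 and 147 bp), against 234 bp (457 and 120 bp) over all genes with a promoter peak, of which 6.50% had the summit at or downstream of the start. Measured from the first coding base, which does not depend on the annotated transcript start, the medians were 273 bp upstream for the group and 294 bp for all genes with a peak. Summits between 500 and 1000 bp upstream made up 3 of the 28 (10.7%) against 22.6%. All 28 summits are separate peaks, and none lay within the member's own gene body. The median peak width was 332 bp, against 353 bp over all genes with a peak. A width of exactly 420 bp recurred at 4 of the 28 genes and at 1263 of the 4152, so the medians depend on how often it occurs.

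**Figure D2:**
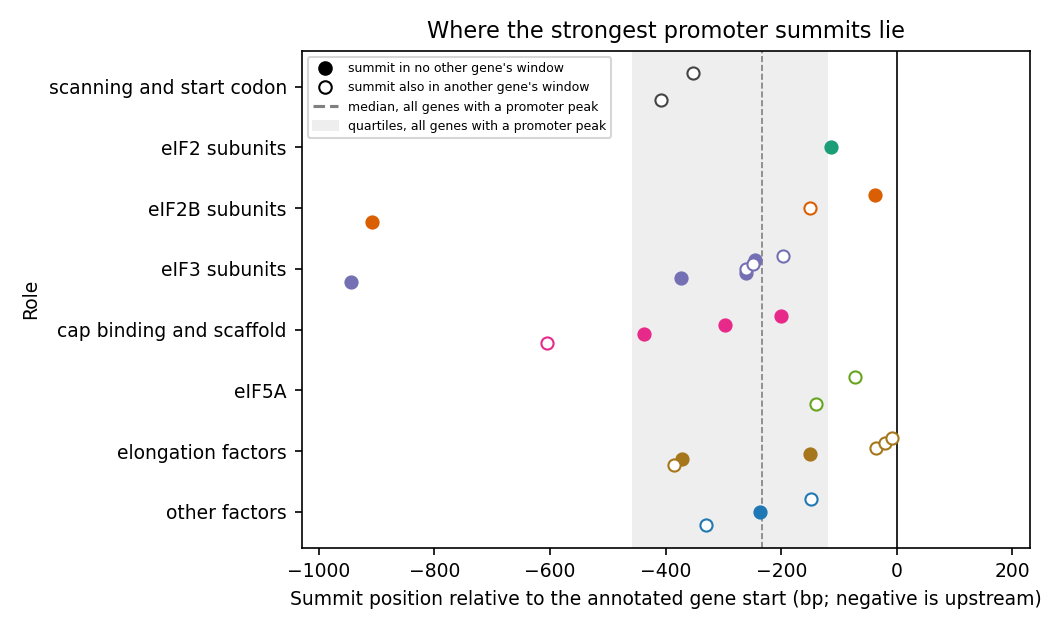
Position of the strongest promoter summit relative to the annotated gene start (horizontal axis, bp) for the 28 genes, by role. Open circles are the 15 summits that also lie in another gene's window, the grey band spans the quartiles over all genes with a promoter peak (457 to 120 bp upstream), and eif-2Bgamma and eif-3.J lie farthest out at 908 and 945 bp upstream.

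Of the 28 summits, 15 (53.6%) were also in the window of another protein-coding gene, against 41.4% over all genes with a promoter peak. Only protein-coding genes whose window held the summit were compared for the nearest start, so the 13 unshared summits count for the member by construction. With these included, the start of the translation factor gene was the nearest in 21 of the 28 cases. The other 7 were eef-1A.1, eif-1, eif-2Bbeta, eif-3.D, eif-3.H, iff-1 and ifg-1. With each summit given to the nearest start only, 3310 of all 4152 genes with a promoter peak kept at least 1. The 21 of 28 therefore does not set the group apart. In 8 of the 39 genes a gene on the same strand ended within 500 bp upstream, a spacing that in this species is common within operons, where genes are transcribed together. Of these 8, 4 had a promoter peak of their own, against 14.8% of 4105 such genes in the genome. They were eef-1B.2, eif-2Bgamma, eif-2gamma and eif-3.C. Of the 4 without one, eif-2alpha follows phb-1, a prohibitin gene whose promoter peak had a signal of 375, while the upstream genes of eif-3.F, ife-1 and ife-5 (wbp-2, dro-1 and Y57A10A.29) had no promoter peak either.

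At the 27 strongest summits that both replicates covered, Spearman's rho between their signals was 0.974 across genes, which share their libraries and are not independent replicates. As a log2 ratio, replicate 2 over replicate 1, the median was -0.24 (SD 0.21), against -0.16 (SD 0.37) over 4104 genes with a promoter peak. It ranged from -0.71 at ife-4 to 0.29 at eif-2D, both of which are among the weakest peaks. Of the 28 genes, 25 had a promoter peak among the strongest 8540 positions of both replicates, and the exceptions were eif-2D, eif-3.J and ife-4. No matching count was made over all genes with a promoter peak, so this count does not set the group apart.

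**Figure D3:**
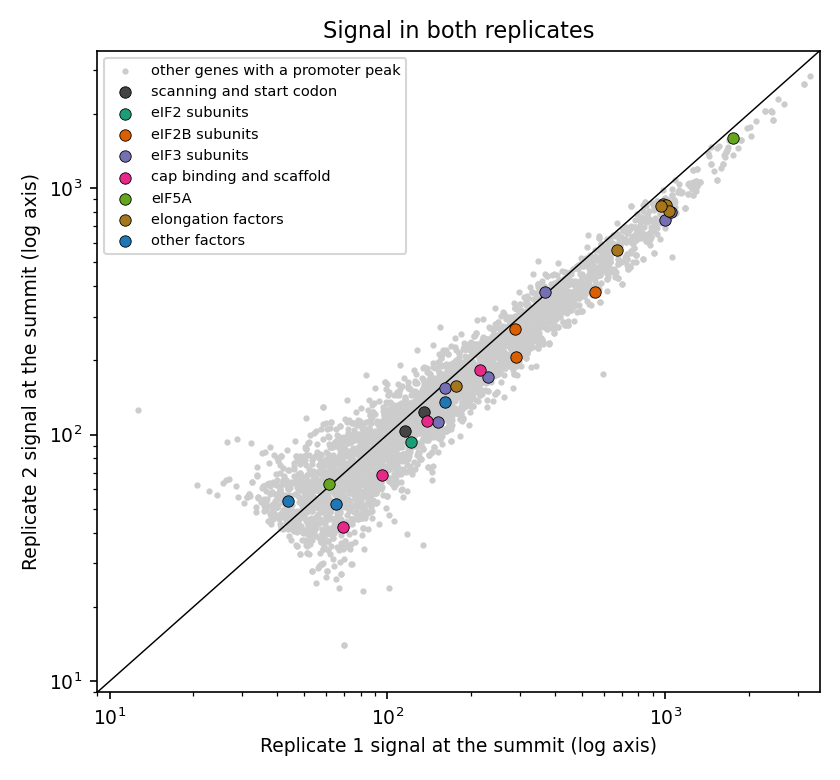
Signal at the strongest promoter summit in replicate 1 (horizontal, log axis) and replicate 2 (vertical, log axis), with grey points for other genes with a promoter peak and coloured points for 27 translation factor genes by role; the line marks equal values. iff-2 lies at the top right at 1753 and 1597, and most of the coloured points lie below the line, as most grey points do.

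Within 50 bp of the summits the word GCGCG, on either strand, was present in 16 of the 28 windows of 101 bp (57.1%), against 824 of 3550 IDR peaks in promoters (23.2%) and 5.33% of all promoters in a window of the same length centred 246 bp upstream of the start. The words were chosen with earlier results of these data known. The 3550 peaks include the members' own and any weaker promoter peak of a gene, whereas each member is represented by its strongest only. The groups also differ in base composition, with a median GC content of 48.5% at the members' summits and 43.6% at all promoter peaks. Among the 1133 promoter peaks with at least the members' median GC content, 36.6% held the word. Among the 1101 of signal above the members' median it was 34.7%. Within the group it was present in 5 of the 8 windows with a signal above 1000 (62.5%) and in 11 of the 20 others (55.0%).

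The half-site of nuclear receptors, AGGTCA, was in 0 of 28 windows, against 3.41% of promoter peaks and 2.69% of all promoters. The E-box, CACGTG, was in 0 of 28, against 5.35% and 1.59%, and the word GTAAACA, bound by FOXO factors, was in 0 of 28, against 2.34% and 1.57%. The GATA word GATAA was in 4 windows (14.3%), against 20.6% and 23.9%, and GAGAGA in 4 (14.3%), against 23.7% and 6.54%. GCGCG and its reverse complement overlap each other in runs of alternating C and G, and a window was counted once. A word in a window is a description of its letters and not of a bound site, and its absence says nothing about any factor.

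**Figure D4:**
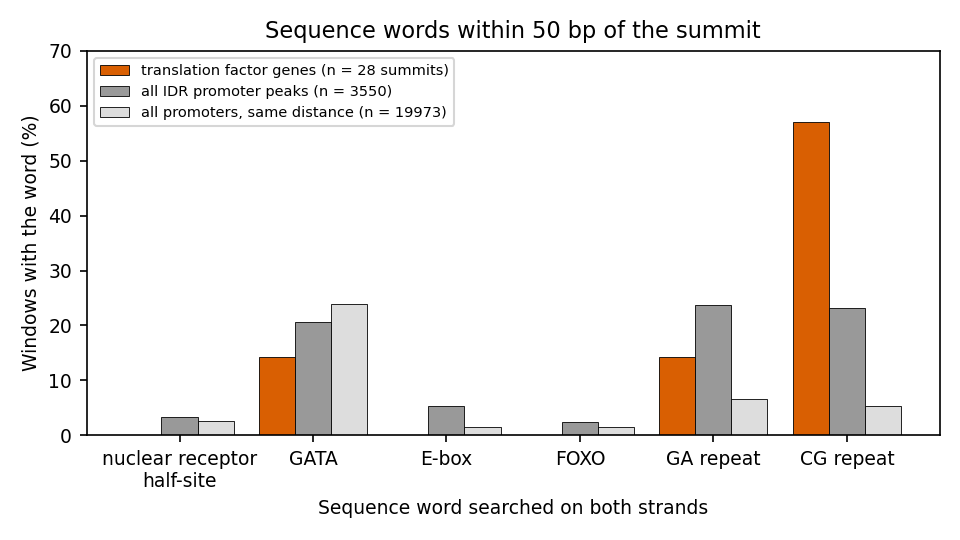
Share of 101 bp windows (vertical axis, %) that hold each of 6 sequence words on either strand, for the 28 translation factor summits, 3550 IDR peaks in promoters and 19973 promoters at 246 bp upstream. GCGCG (CG repeat) is in 57.1% of the translation factor windows, and the nuclear receptor half-site, the E-box and the FOXO word are in none of the 28. The words were chosen with earlier results of these data known.

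Other genes listed under translation, which the name rule leaves out, had promoter peaks in 32 of 58 cases (55.2%), against 20.8% of all genes, with a median signal of 406. The 58 include egl-45 and cif-1, and without these added genes the share was 32 of 56 (57.1%). Both counts also include eftu-2 (394, also in the window of gcna-1), which encodes a spliceosomal GTPase and not a translation factor. Of 69 listed symbols, 11 did not match the annotation. Among genes listed as other initiation and elongation proteins, eftu-2 included, 8 of 15 had a promoter peak. They were led by drr-2, the eIF4H gene (3428, also in the window of set-16), larp-1 (2348, also in that of wip-1) and abcf-2 (1686, shared with T27E9.2 and ant-1.1). inf-1, which encodes the helicase eIF4A, had 159, and iffb-1, the eIF5B gene, had none. Among cap and poly(A) binding proteins and repressors, 7 of 13 had one, with ifet-1, which represses initiation in the germ line, at 2487 in a peak shared with the ribosomal protein gene rps-1. larp-1, in this list too, came next, and the RNA helicase gene cgh-1 had 1003.

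Control and modifying enzymes were mixed. Of 14 translational control kinases and partners, 9 had a promoter peak, with rheb-1, the GTPase upstream of TOR, at 1057, mnk-1 at 855 and atf-4 at 839. The eIF2 kinase genes pek-1 and gcn-2 had 645 and 324, whereas the TOR gene let-363, the S6 kinase gene rsks-1 and the eEF2 kinase gene efk-1 had none. Of 8 hypusine and diphthamide enzymes, 3 had one, at dph-2 (254), dph-3 (232) and dohh-1 (154), and the deoxyhypusine synthase gene dhps-1 had none. Termination and recycling genes had one in 3 of 5 cases, at erfa-1 (332), erfa-3 (312) and pelo-1 (162). Of 5 mitochondrial factors 3 had one, at gfm-1 (655), tufm-2 (556) and tufm-1 (216). The peaks named at inf-1, rheb-1, atf-4, gcn-2, dph-2, dph-3, dohh-1, erfa-1, erfa-3, pelo-1, gfm-1 and tufm-2 also lay in another gene's window and cannot be given to either gene.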

How the data were processed

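The authors deposited peak lists in the narrowPeak format for both replicates, for both pooled and, after IDR filtering, as a final set. Per the file headers and names, the longer lists hold peaks and background as IDR input. The sources used here do not name the aligner, the peak caller or the IDR cutoff. The deposited signal per peak was used to rank peaks, and the deposited -log10 (q) was not, since it takes 1 value over all 8540 IDR peaks. The IDR summits are the 8540 strongest of the 30000 in the pooled list, so these lists are not independent. No list gives read counts, so depth is unknown, and the number of replicates, 2, limits the precision. Lists on ce10 were not used.

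Coordinates are 1-based on ce11 (WBcel235), genes are from Ensembl release 115 and sequence is from RefSeq. Summits, windows, words and protein alignments (BLOSUM62, gap scores -11 and -1, longest coding sequence) were computed with Python 3.11.15, NumPy 2.4.6, pandas 2.3.3, Biopython 1.88 and Matplotlib 3.10.9, and the window search was checked on planted summits. A replicate value is the strongest position that covers the IDR summit. No test over samples was possible. Every member is named, with genes that share a member's summit and the 3 strongest of each related list; other genes were named after their values were seen. Members, gene lists and words were chosen with earlier results of these data known. Alternatives were windows from 500 and 2000 bp upstream, the 4270 stronger IDR peaks, transcript starts, nearest start only, interval overlap, each replicate alone and a wider word window.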

Additional observations from a re-analysis of the deposited data

How the results depend on the processing

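The count of 28 genes with a promoter peak, against 20.8% of all genes, ranged from 21 (16.6% of all genes), with each summit given only to the nearest start, to 31 (26.8%), with windows from 2000 bp upstream. It was 26 (16.6%) with windows from 500 bp. Any annotated transcript start gave 30 (22.6%), adding eif-2beta and eif-3.I, and interval overlap gave 29 (22.3%). Replicates 1 and 2 alone gave 26 (21.2%) and 30 (21.1%). Giving each summit only to the nearest start, among genes whose window holds it, leaves no shared summits by construction. With only the 4270 stronger IDR peaks eif-2A, eif-2D, ife-3, ife-4 and iff-1 were lost. The members' median signal was then 496 instead of 389, and that over all genes with a promoter peak was 440 instead of 275. These medians thus lay closer together than in the full IDR set. The genome held 2671 genes with a promoter peak instead of 4152, because fewer peaks were used. Replicates 1 and 2 alone gave members' medians of 223 and 158, against 144 and 132 over all genes with a promoter peak in the same list. The median summit position was -218 bp with windows from 500 bp, -261 bp with windows from 2000 bp, and from -245 to -225 bp in the replicate lists, against -246 bp. With 100 bp to each side of the summit, AGGTCA and GTAAACA were each in 1 of 28 windows instead of 0, against 6.28% and 4.90% of all promoter peaks, and GCGCG was in 19 (67.9%), against 29.5%. The lists hold no counts, so no interval for a peak's signal can be given, and a gene without a listed summit is not shown to lack binding.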

Other observations

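Several positions near these genes were in 1 list and missing from another. At eif-3.I, replicate 2 listed a summit 215 bp upstream with a signal of 151, rank 2683, and neither replicate 1 nor the pooled list had any position in that promoter window. At eif-2Bepsilon replicate 2 listed 99.5 at 115 bp upstream, rank 4179, where replicate 1 listed none and the pooled list held only a summit of 24.6 at 98 bp downstream. At eif-2Balpha replicate 2 listed 75.3 at 110 bp upstream, rank 5461, with no position in that window in replicate 1 or the pooled list. At eif-3.J replicate 1 again lacked the position, but here the pooled list held it. The pooled and IDR value was 380 and that of replicate 2 was 158, while the nearest summit of replicate 1 was 12608 bp from the gene start. A position missing from a list does not show that the replicate had no signal there.

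Such gaps were not limited to these genes. Of the 8540 strongest summits of replicate 2, 333 (3.90%) lay in no position of the full replicate 1 list and 301 (3.52%) in none of the pooled list. In the opposite direction, 294 summits of replicate 1 (3.44%) lay in no position of replicate 2. Of the IDR summits, 67 lay in no position of replicate 1 and 47 in none of replicate 2. The cause was not tested.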
